A study of Mus musculus with 18 samples.

Results

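The amino acid transporters described here are the 64 protein-coding genes of the mouse whose names begin with Slc1a, Slc3a, Slc6a, Slc7a, Slc36a, Slc38a or Slc43a, out of 21734 genes in the deposited table of read counts. They were chosen by name alone. Of these members, 31 passed the filter on low counts and are called expressed below, and the other 33 did not. The name rule also took in Slc7a6os, a gene on the opposite strand beside Slc7a6 that is not a transporter. RNA was sequenced from bone marrow-derived macrophages (BMDMs), which are macrophages grown from marrow in culture with M-CSF at 10 ng/mL for 8 to 9 days. The marrow came from mice of a 129/B6 mixed strain, 6 to 7 months old, 3 of each genotype. The genotypes were wild-type (WT), a knockout of miR-146a (KO), and 3′F, an allele in which miR-146a keeps its seed while part of its 3′ portion is exchanged with the opposite strand of the hairpin (3F in the plots). Both mutant alleles were germline changes in every cell, each kept as its own mouse line. Cultures of each genotype were harvested 16 h after a medium change with LPS at 1 ng/ml (a bacterial cell wall component that activates macrophages) or without it (resting), giving 6 groups of 3 libraries. miR-146a itself is not a protein-coding gene and was not analysed here, so the table gives no check of the alleles.

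Amino acid transporters are membrane proteins that move amino acids and related small molecules across the plasma membrane or the lysosomal membrane. A set of SLC7 light chains work only when joined to a heavy chain, above all Slc3a2 (CD98 heavy chain), and trade one amino acid for another. The cationic transporters Slc7a1 and Slc7a2 carry arginine, which macrophages use to make nitric oxide or ornithine, and Slc7a11 (xCT) exports glutamate for cystine, the precursor of cysteine for glutathione. SLC38 members take up glutamine and other neutral amino acids with sodium, and SLC1 members take up either glutamate or neutral amino acids such as glutamine. SLC6 members carry taurine, creatine, betaine, glycine and GABA as well as amino acids. SLC36 members move small amino acids with protons, and SLC43 members let large neutral amino acids pass.

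miR-146a represses mRNAs that pair with its seed, bases 2 to 8 of the mature RNA. The sequences are shown because both alleles concern this molecule and because miR-146b, which neither allele touches, has the same seed. They come from RefSeq (GRCm38.p6), with the seed in capitals.
mmu-miR-146a-5p (chr11:43374435-43374456, minus strand): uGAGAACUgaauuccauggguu
mmu-miR-146b-5p (chr19:46342790-46342811, plus strand): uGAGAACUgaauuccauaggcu
A match to this seed of 7 or 8 bases on the sense strand of the longest annotated 3′ UTR, that is AGTTCTC as the complement of the whole seed, or its end followed by an adenosine in the form GTTCTCA, or both together, was present in 10 of the 31 expressed members (32.3%), against 20.6% of the 11308 tested genes with an annotated 3′ UTR. Expressed or not, 17 of the 64 members held one (26.6%), against 17.6% of 21415 genes. The 10 were Slc1a2, Slc1a5, Slc36a1, Slc38a1, Slc38a6, Slc38a7, Slc38a9, Slc6a6, Slc7a1 and Slc7a4. Slc7a4 was the expressed member with the 8-base match, and the windows below show it beside the 7-base matches of Slc36a1 and Slc1a5, with the match in capitals.
Slc7a4: tcatagctctgAGTTCTCAcctgcctggag
Slc36a1: gatgggctctcAGTTCTCctaccgttgcc
Slc1a5: ttgtcctgtagAGTTCTCtacccttttaa
A match in letters is a description of the sequence, not of binding.

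Library totals ran from 4071084 to 19818043 counts. A pair of libraries stood apart. On a principal component analysis of all genes tested, resting KO replicate 3 lay at 19.7 on the first component, where the other resting KO libraries lay at -28.2 and -31.4 and the WT libraries with LPS between 17.4 and 43.6. Resting 3′F replicate 3 had the lowest total and lay at 50.3 on the second component, where no other library exceeded 17.9. The members held 0.206% of its counts, against 0.301% to 0.391% in the other 17 libraries, and 18 of the 33 unexpressed members had at least 1 count in it (61 counts in all), against 2 to 13 members and 9 to 29 counts elsewhere. All 8 macrophage markers examined were present in every group, with a summed level of 31800 to 87900 counts per 1000000 (CPM), while the summed neutrophil markers reached 67 CPM at most and mast cell and erythroid markers were at or near 0. The counts are from bulk RNA, in which fewer cells making a transcript and less of it per cell cannot be told apart.

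Of the 33 unexpressed members, 29 had no more than 5 counts in any library, and none had more than 11. They were the glutamate transporters Slc1a1, Slc1a3, Slc1a6 and Slc1a7, the heavy chain Slc3a1, the light chains Slc7a9, Slc7a10, Slc7a12, Slc7a13 and Slc7a15, the cationic relatives Slc7a3 and Slc7a14, Slc36a3, Slc43a1, the SLC38 members Slc38a3, Slc38a4, Slc38a5, Slc38a8 and Slc38a11, and 14 SLC6 members. Among the latter were the noradrenaline (Slc6a2), dopamine (Slc6a3) and serotonin (Slc6a4) transporters, the glycine transporter Slc6a5 and the proline transporter Slc6a7. For each library, 3 counts correspond to 0.164 to 0.702 CPM, and a level below that rests on fewer than 3 counts.

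Per kilobase of annotated length, the taurine transporter Slc6a6 had the highest level of the expressed members in resting WT cells, at 169 ± 21.8 CPM per kb (SD, n = 3). Slc3a2 and Slc43a2 followed at 61.1 ± 1.86 and 60.4 ± 8.30 CPM per kb, a difference smaller than their spread. Then came Slc38a2 at 37.0 ± 5.70, Slc6a8 at 35.0 ± 4.72, Slc38a10 at 32.6 ± 1.79, Slc36a4 at 25.9 ± 2.18 and Slc7a8 at 25.4 ± 6.32 CPM per kb. At the other end, Slc6a17, Slc6a19, Slc6a13, Slc1a4, Slc6a9 and Slc1a2 lay below 1 CPM per kb. After LPS, Slc7a2 stood in place 7 of 31 at 26.4 ± 5.87 CPM per kb, against place 22 and 2.79 ± 0.273 in resting cells, and Slc7a11 in place 8 at 22.4 ± 8.71, against place 19 and 3.31 ± 1.79. Slc6a6 alone made up 36.7% of the members' summed CPM in resting WT cells and 26.4% after LPS.

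**Figure D1:**
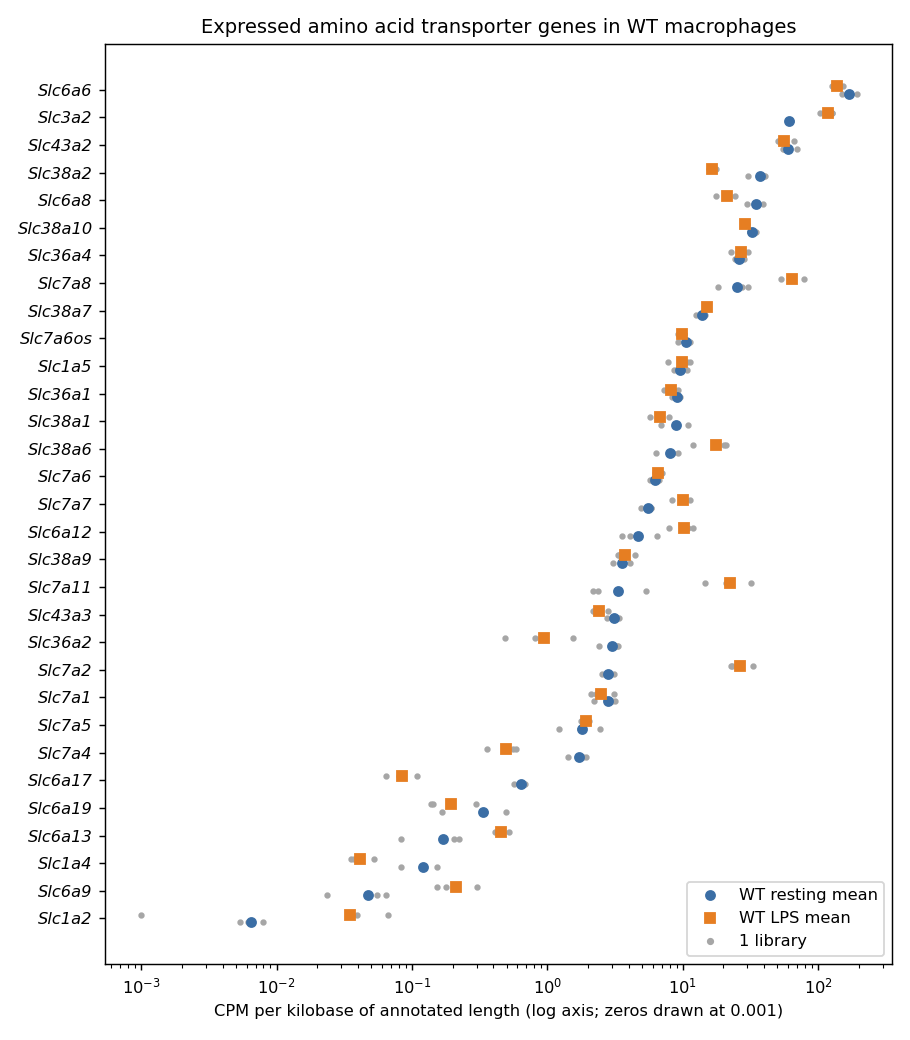
Level of each of the 31 expressed members in WT macrophages, in CPM per kilobase of annotated length on a log axis, with grey points for single libraries and coloured points for the mean of 3 (circles resting, squares with LPS). Slc6a6, at 169 CPM per kb at rest, sits highest in both states, and the squares of Slc7a2 and Slc7a11 lie far to the right of their circles.

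The first comparison asks which transporters respond to LPS. In WT cells 12 of the 31 expressed members passed the test (38.7%, adjusted p under 0.05 in edgeR's quasi-likelihood test, adjusted over 11357 genes), 7 higher and 5 lower with LPS, against 28.5% of all genes tested (16.3% higher and 12.3% lower). In KO cells 11 passed, 6 higher and 5 lower, against a background of 26.9%, and in 3′F cells 10, 6 higher and 4 lower, against 31.2%. The members' median log2 fold change was 0.06 in WT, -0.05 in KO and 0.06 in 3′F, beside 0.02, 0.02 and -0.01 over all genes. Passing in all 3 genotypes were 8 members, Slc7a2, Slc7a11, Slc3a2, Slc7a7 and Slc38a6 higher and Slc38a2, Slc7a4 and Slc36a2 lower. The share of all genes that passed in all 3 was not counted, so this number has no background beside it.

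Slc7a2 (CAT2, chr8:40862396-40922308), the inducible arginine transporter, rose the most of the members called. In WT libraries it stood at 24.96, 23.3 and 28.2 CPM at rest and at 210.4, 209 and 303 CPM with LPS. KO libraries gave 19.6, 26.2 and 35.4 CPM at rest and 424, 423 and 433 CPM with LPS, and 3′F libraries 29.9, 18.4 and 8.66 and 435, 205 and 224 CPM. Resting and LPS libraries did not overlap in any genotype. The rise was 9.44-fold in WT (log2 3.24 ± 0.36 (SE), adjusted p = 7.99e-06), 15.8-fold in KO (log2 3.99 ± 0.37 (SE), adjusted p = 1.02e-06) and 14.6-fold in 3′F (log2 3.87 ± 0.37 (SE), adjusted p = 1.64e-06). With LPS all KO libraries lay above all WT libraries, by a log2 difference of 0.83 (95% interval 0.13 to 1.52). This did not pass in the edgeR fit of all libraries (adjusted p = 0.177). It passed in limma-voom with quality weights (log2 0.89, adjusted p = 0.0175) and in edgeR with the 2 groups alone (log2 0.81, adjusted p = 0.016). The constitutive arginine transporter Slc7a1 (CAT1) stood at 16.6, 23.9 and 22.6 CPM in resting WT and 17.2, 23.6 and 15.8 CPM in LPS-treated WT libraries, which overlap. Its KO libraries gave 15.9, 16.3 and 10.3 CPM at rest and 14.9, 17.2 and 14.9 CPM with LPS, and its 3′F libraries 23.6, 20.4 and 14.98 and 19.7, 15.9 and 18.9 CPM. No comparison of Slc7a1 passed in the edgeR fit of all libraries. The third expressed member of this group, Slc7a4, a relative with no settled transport role, fell with LPS in all genotypes, from 7.16, 6.78 and 5.22 to 2.16, 2.05 and 1.32 CPM in WT. In KO it went from 5.13, 5.43 and 5.61 to 2.41, 2.1 and 2.07 CPM and in 3′F from 5.81, 4.46 and 5.15 to 1.83, 1.75 and 1.54 CPM. Its log2 changes were -1.79 ± 0.20 (adjusted p = 1.13e-05) in WT, -1.29 ± 0.20 (adjusted p = 0.000201) in KO and -1.57 ± 0.21 (adjusted p = 5.35e-05) in 3′F, with no overlap between states.

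Slc7a11 (xCT, chr3:49892526-50443614), the cystine importer, rose in all genotypes. Resting WT libraries held 23.4, 21.5 and 52.9 CPM and LPS-treated WT libraries 144, 313 and 205 CPM, a 6.80-fold rise (log2 2.77 ± 0.35 (SE), adjusted p = 2.62e-05). In KO cells the level went from 58.8, 74.4 and 40.2 to 184, 192 and 212 CPM, 3.39-fold (log2 1.76 ± 0.33 (SE), adjusted p = 0.000911), and in 3′F cells from 27.3, 29.9 and 40.0 to 220.3, 145 and 189 CPM, 5.77-fold (log2 2.53 ± 0.35 (SE), adjusted p = 5.63e-05). States did not overlap in any genotype. The response in KO was smaller than in WT by 1.01 on the log2 scale, with a 95% interval of the difference of -1.98 to -0.03, and this did not pass after adjustment (unadjusted p = 0.0442, adjusted p = 0.976). The start of Slc7a11 holds a pair of copies, on opposite strands, of TGATGNAA, the composite element read by C/EBP and ATF factors such as ATF4. They lie 66 and 47 bases upstream of the start and are shown from RefSeq promoters (GRCm38, gene strand) with the motif in capitals.
Slc7a11, chr3:50443661-50443690: tctcatgtggcTGATGCAAacctggagaat
Slc7a11, chr3:50443642-50443671: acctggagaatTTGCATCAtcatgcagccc
The same motif was found, on either strand, in 3 of 22 expressed members with a promoter in the table (Slc1a4, Slc7a11 and Slc7a7, 13.6%), against 2.87% of 8907 tested genes and 4.51% of 27025 genes in the table. The windows searched ran from 250 bases before to 50 after each start, and a gene was counted where any of its starts held the motif, with a mean of 1.73 starts in the 22 members and 1.28 in the tested genes. The antioxidant element TGACNNNGC was found in 6 of the 22 (27.3%, against 17.1% of tested genes), not among them Slc7a11. An NF-kB consensus was found in 5 (Slc36a4, Slc43a2, Slc6a12, Slc6a13 and Slc7a7, 22.7%, against 12.3% of tested genes).

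The heavy chain Slc3a2 and its partners Slc7a7 and Slc7a8 also rose. Slc3a2 (CD98 heavy chain), which carries the light chains to the membrane, went from 201, 200.4 and 212 to 425, 348 and 423 CPM in WT, from 246, 280.0 and 414 to 422, 502 and 420.3 CPM in KO and from 215, 218 and 156 to 410.0, 447 and 405 CPM in 3′F. Its log2 changes were 0.96 ± 0.17 (adjusted p = 0.000573), 0.52 ± 0.17 (adjusted p = 0.0333) and 1.10 ± 0.17 (adjusted p = 0.000198). In KO the lowest LPS library lay just above the highest resting one, replicate 3, and the call was lost without any of resting KO replicates 1 and 2 or LPS-treated KO replicates 1 and 2, with no filter on low counts (adjusted p = 0.0755) or with the 2 groups fitted alone (adjusted p = 0.139). Slc7a7 (y+LAT1, which trades arginine and lysine for neutral amino acids) went from 18.5, 15.6 and 18.5 to 33.3, 26.7 and 36.3 CPM in WT, from 28.2, 27.6 and 26.1 to 35.95, 43.9 and 37.2 CPM in KO and from 17.9, 20.0 and 14.8 to 30.7, 34.8 and 33.7 CPM in 3′F. All 3 changes passed, at log2 0.87 ± 0.13 (adjusted p = 0.000179), 0.51 ± 0.13 (adjusted p = 0.00813) and 0.89 ± 0.14 (adjusted p = 0.000148), the KO call being lost without LPS-treated KO replicate 2 (adjusted p = 0.0998).

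Slc7a8 (LAT2), a carrier of neutral amino acids, stood at 73.7, 110.2 and 123 CPM in resting WT libraries and at 318, 214 and 248 CPM with LPS. KO libraries gave 140.1, 153 and 246 and 270.2, 309 and 251 CPM, and 3′F libraries 110.1, 102 and 63.2 and 302, 309 and 250.1 CPM. The log2 change was 1.35 ± 0.25 (adjusted p = 0.00072) in WT, 1.64 ± 0.25 (adjusted p = 0.000142) in 3′F and 0.62 ± 0.24 (adjusted p = 0.0674) in KO, where it passed without resting KO replicate 3 (log2 0.92, adjusted p = 0.00646). The difference between the KO and WT responses was -0.72 (95% interval -1.45 to 0.00, adjusted p = 0.997). Of the other light chains, Slc7a5 (LAT1, the leucine and tryptophan carrier) stayed low, at 4.27, 8.58 and 6.09 CPM in resting and 6.28, 7.03 and 7.11 CPM in LPS-treated WT libraries. Slc7a5 in KO held 3.03, 3.90 and 8.53 CPM at rest and 6.41, 6.37 and 6.28 CPM with LPS, and in 3′F 4.80, 3.77 and 5.62 and 6.16, 6.52 and 4.23 CPM. Its change in WT was 0.11 on the log2 scale (95% interval -0.55 to 0.77), and no comparison passed in the edgeR fit of all libraries. The rise of Slc7a5 with LPS in KO passed without resting KO replicate 3 (log2 0.88, adjusted p = 0.018). It also passed in limma-voom with quality weights (log2 0.88, adjusted p = 0.00159), as did the rise in 3′F (log2 0.52, adjusted p = 0.0341). Slc7a6 (y+LAT2) had group means of 21.7 to 25.3 CPM and passed in none. Slc7a6os, its neighbour, had 11.1 to 14.5 CPM.

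**Figure D2:**
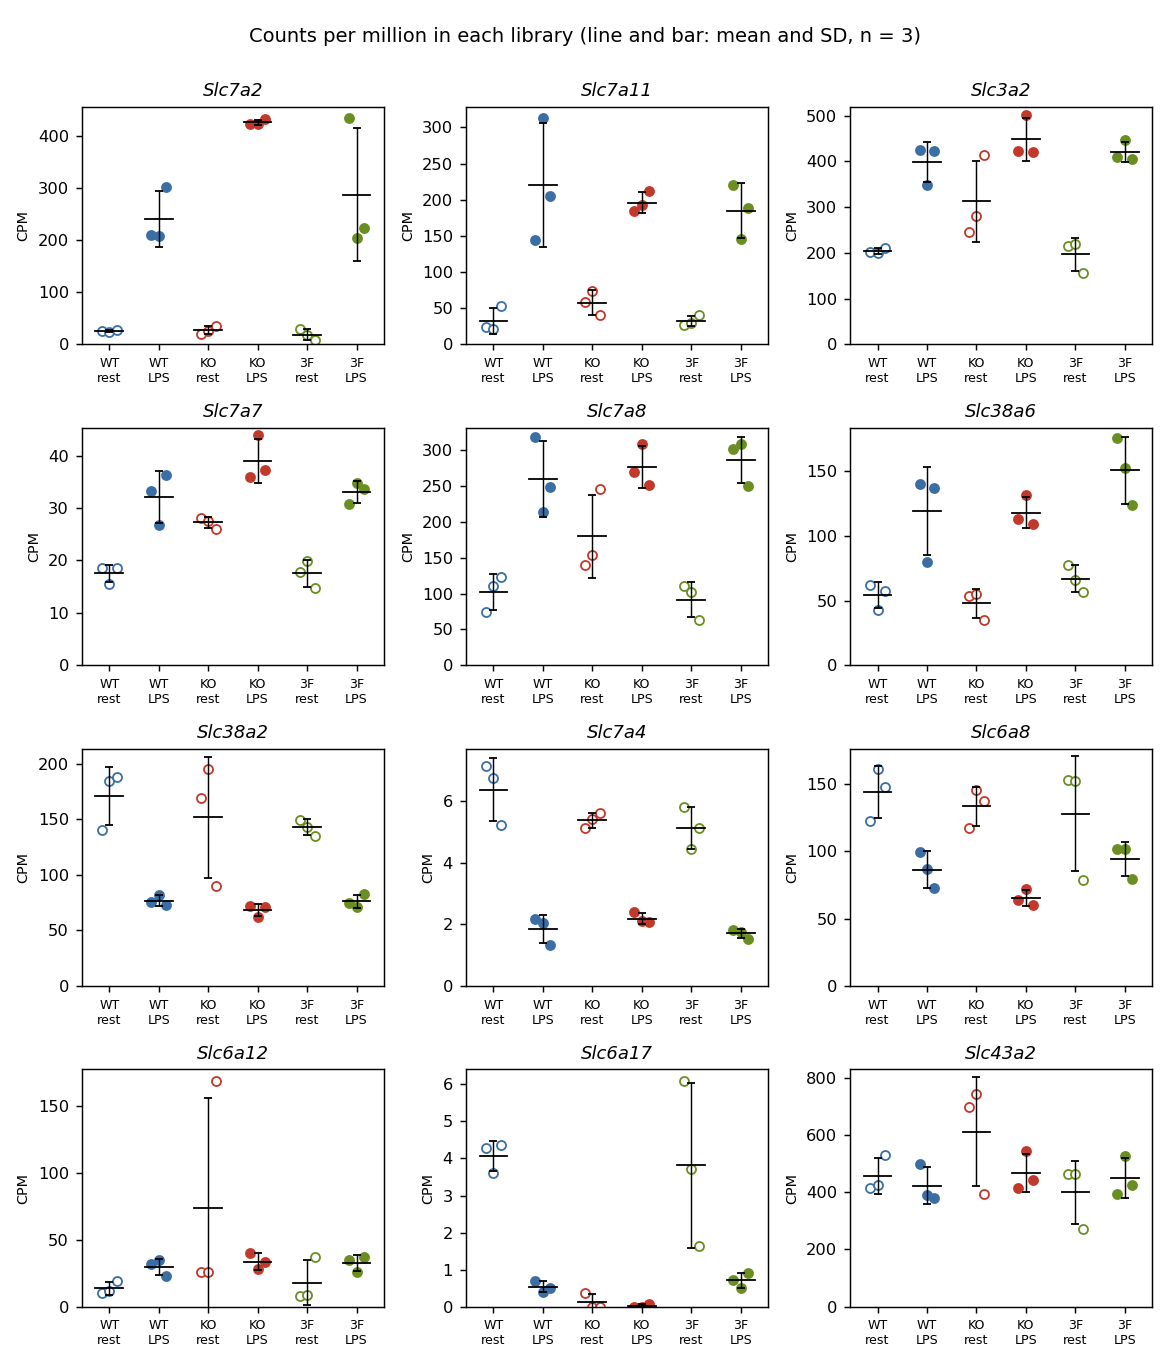
CPM of 12 members in each library by genotype and state, open circles resting and filled circles with LPS, with a line and bar for the mean and SD of 3 libraries (bars are cut at 0). The filled circles of Slc7a2, Slc7a11 and Slc7a4 are separated from the open ones in every genotype, and 1 resting KO library of Slc6a12, at 168 CPM, stands far from the other 17.

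Among the sodium-coupled SLC38 members, 6 of 11 were expressed, and 1 rose and 1 fell in each genotype. Slc38a2 (SNAT2), the glutamine and alanine importer that cells raise when amino acids are short, fell from 141, 185 and 188 to 75.4, 82.2 and 72.7 CPM in WT. In KO it went from 169, 196 and 90.3 to 72.2, 62.5 and 71.5 CPM and in 3′F from 149.9, 144 and 135 to 74.9, 70.7 and 82.7 CPM. These are log2 changes of -1.16 ± 0.20 (adjusted p = 0.000472), -1.14 ± 0.20 (adjusted p = 0.000483) and -0.91 ± 0.20 (adjusted p = 0.00269). Every LPS library lay below every resting one, although resting KO replicate 3, at 90.3 CPM, was the lowest of the resting 9. Slc38a6, a little-studied member of the family, rose from 62.1, 43 and 57.7 to 140.5, 80.1 and 137 CPM in WT, from 53.9, 55.0 and 35.1 to 113, 132 and 109 CPM in KO and from 77.7, 66.1 and 56.9 to 176, 153 and 124 CPM in 3′F. Its log2 changes were 1.14 ± 0.22 (adjusted p = 0.00127), 1.29 ± 0.22 (adjusted p = 0.000428) and 1.17 ± 0.22 (adjusted p = 0.000949). Slc38a9, the lysosomal arginine sensor upstream of mTORC1, did not move beyond its spread, with 27.4, 36.4 and 31.9 CPM in resting and 30.1, 29.6 and 39.6 CPM in LPS-treated WT libraries and a log2 change of 0.05 (95% interval -0.28 to 0.39). KO libraries of Slc38a9 held 30.2, 27.6 and 35.0 CPM at rest and 33.3, 24.0 and 32.2 CPM with LPS, and 3′F libraries 30.5, 26.3 and 26.0 and 27.2, 30.1 and 33.2 CPM. Slc38a1 (SNAT1, a glutamine importer) had group means of 56.8 to 74.5 CPM, Slc38a7 (a lysosomal glutamine carrier) 41.7 to 52.2 CPM and Slc38a10 155 to 177 CPM. None of the 3 passed in any comparison in the edgeR fit of all libraries. Slc38a1 was called lower with LPS in WT in limma-voom with quality weights (log2 -0.58, adjusted p = 0.0041).

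Of the SLC36 proton-coupled members, Slc36a2 (PAT2) was low and fell with LPS in each genotype. It went from 7.88, 8.06 and 5.90 to 3.77, 1.98 and 1.17 CPM in WT, from 3.46, 4.66 and 6.62 to 0.895, 0.507 and 1.57 CPM in KO and from 6.26, 6.84 and 4.21 to 2.49, 2.30 and 1.92 CPM in 3′F, or log2 -1.66 ± 0.37 (adjusted p = 0.00326), -2.28 ± 0.41 (adjusted p = 0.000668) and -1.39 ± 0.38 (adjusted p = 0.0112). Slc36a1 (the lysosomal PAT1) had group means of 38.3 to 56.5 CPM and Slc36a4 157 to 177 CPM, with no LPS call in the edgeR fit of all libraries. The SLC1 family gave no call in the edgeR fit of all libraries. Slc1a5 (ASCT2), the main glutamine importer of many proliferating cells, held 25.2, 29.7 and 24.0 CPM in resting WT and 29.8, 31.1 and 21.7 CPM in LPS-treated WT libraries. In KO it held 22.5, 19.6 and 9.88 and 17.8, 15.9 and 10.1 CPM, and in 3′F 29.6, 28.7 and 16.1 and 25.4, 29.4 and 25.3 CPM, so that every KO library lay below every WT library in the same state. With LPS that difference was log2 -0.91 (95% interval -1.50 to -0.33, adjusted p = 0.0663), short of the threshold. It passed in other fits, with no filter on low counts (adjusted p = 0.0476), in DESeq2 (adjusted p = 0.0299), with quality weights (adjusted p = 0.00245), with a replicate block (adjusted p = 0.00985) and with the 2 groups alone (adjusted p = 0.0396). Against 3′F with LPS, Slc1a5 in KO differed by log2 -0.87 (adjusted p = 0.094) and passed in DESeq2, with quality weights, with the block and with the 2 groups alone (adjusted p from 0.00341 to 0.0474). Slc1a2 (GLT-1), the astrocyte glutamate transporter, and Slc1a4 (ASCT1) were at the edge of detection, with group means of 0.0792 to 1.23 and 0.164 to 0.758 CPM. The resting 3′F mean of Slc1a2 rested on replicate 3, with 0.282, 0.232 and 2.34 CPM in the 3 libraries.

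Among the 7 expressed SLC6 members, the creatine transporter Slc6a8 fell with LPS in WT, from 123, 161 and 147 to 99.7, 87.0 and 72.4 CPM (log2 -0.73 ± 0.20 (adjusted p = 0.0132)). In KO it fell from 117, 145 and 137 to 63.8, 71.6 and 60.3 CPM (log2 -1.03 ± 0.21 (adjusted p = 0.0014)). The 3′F libraries, at 153, 152 and 78.4 and 101, 101 and 79.7 CPM, overlapped, resting replicate 3 being the lowest of all 6, and the change did not pass (log2 -0.45 ± 0.20 (adjusted p = 0.107)), while without that library it did (log2 -0.73, adjusted p = 0.00206). The WT call was lost without resting WT replicate 2 or LPS-treated WT replicate 3 (adjusted p up to 0.0722). Slc6a6, the taurine transporter, had group means of 900.4 to 1164 CPM and no call in the edgeR fit of all libraries. In limma-voom with quality weights its fall with LPS passed in KO (log2 -0.36, adjusted p = 0.0075) and in 3′F (log2 -0.32, adjusted p = 0.0176). The fall in 3′F also passed in edgeR without resting 3′F replicate 3 (log2 -0.40, adjusted p = 0.0318). The glycine transporter Slc6a9 rose from a very low level, 0.195 ± 0.0872 CPM at rest to 0.863 ± 0.321 CPM with LPS in WT (SD, n = 3, adjusted p = 0.01). The resting WT libraries held 4, 3 and 1 counts, and the ratio of the summed counts at equal depth was 4.22, with an exact binomial 95% interval of 1.93 to 10.48 for counting error. In KO it went from 0.246 ± 0.0920 to 1.47 ± 0.483 CPM (adjusted p = 0.00125), a ratio of 6.21 (interval 3.07 to 14.2) over 4, 2 and 3 resting counts. In 3′F it went from 0.349 to 0.689 CPM and did not pass (adjusted p = 0.0682). The ratio there was 2.86 (interval 1.30 to 6.93) over 2, 4 and 3 resting counts. The 3′F rise passed without resting 3′F replicate 3 (log2 1.86, adjusted p = 0.0212) and in limma-voom with quality weights (adjusted p = 0.00478). Slc6a19 (B0AT1, known from gut and kidney) had group means of 0.729 to 2.14 CPM and was called with LPS in KO (log2 -1.50 ± 0.42 (adjusted p = 0.0149)), a call lost without resting KO replicate 3 or LPS-treated KO replicate 2. The GABA transporter Slc6a13 had 0.403 to 1.53 CPM and no call in the edgeR fit of all libraries. Neither SLC43 member was called in the edgeR fit of all libraries. Slc43a2 (LAT4) held 416, 425 and 529 CPM in resting and 498, 389.6 and 381 CPM in LPS-treated WT libraries, 699, 743 and 392.3 and 415, 542 and 442 CPM in KO, and 464, 463 and 271 and 393, 527 and 425 CPM in 3′F. Slc43a3, a purine base carrier, held 8.67, 8.96 and 7.35 CPM in resting and 5.79, 7.51 and 5.86 CPM in LPS-treated WT libraries, 3.77, 3.36 and 9.99 and 2.82, 2.25 and 3.28 CPM in KO, and 6.83, 5.85 and 6.32 and 6.01, 3.12 and 7.05 CPM in 3′F. With LPS every KO library of Slc43a3 lay below every WT library, by log2 -1.20 (95% interval -1.95 to -0.44, adjusted p = 0.0647), and this passed with no filter (adjusted p = 0.0379), in DESeq2 (adjusted p = 0.0275), with quality weights (adjusted p = 0.00823) and with the 2 groups alone (adjusted p = 0.0162).

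**Figure D3:**
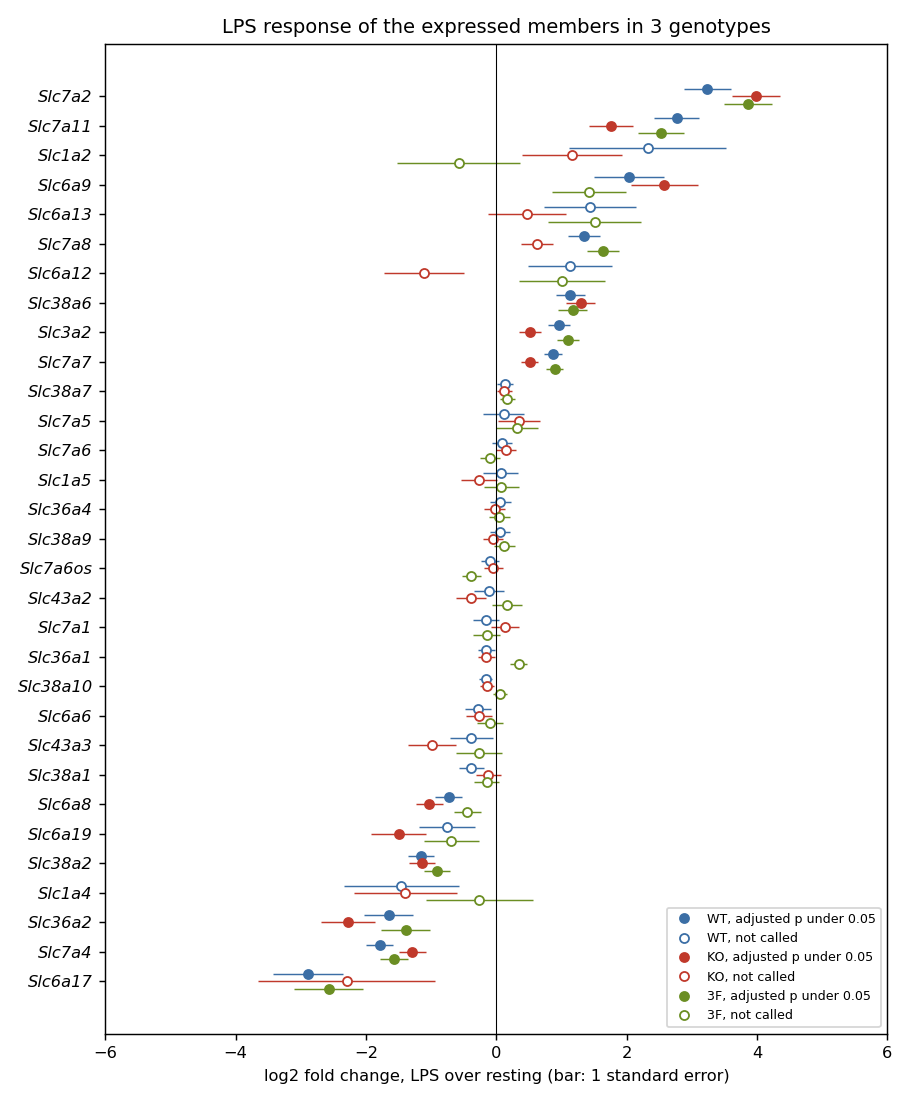
Log2 fold change of LPS over resting for the 31 expressed members in WT, KO and 3′F (blue, red and green), with bars of 1 standard error, filled where the adjusted p is under 0.05. Slc7a2 has the largest rise in each genotype, followed by Slc7a11 in WT and 3′F and by Slc6a9 in KO, and Slc6a17, open in KO, has the lowest value in each.

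The second comparison asks how resting KO cells differed from resting WT cells. Since the KO allele was kept as its own line of a mixed strain, effects of the allele and of the line cannot be told apart. In KO against WT, 5 members passed (16.1%), 4 higher and 1 lower, against 9.4% of all genes (5.12% higher and 4.27% lower). Slc7a7 was higher in KO, at 28.2, 27.6 and 26.1 CPM against 18.5, 15.6 and 18.5 CPM, by log2 0.64 ± 0.14 (adjusted p = 0.00837), with no overlap. Its partner Slc3a2 was higher by log2 0.62 ± 0.17 (adjusted p = 0.0326), with 246, 280.0 and 414 CPM in KO against at most 212 CPM in WT. Slc7a8 was higher by log2 0.81 ± 0.24 (adjusted p = 0.0462), and its groups did not overlap either. Slc6a12, the betaine and GABA transporter BGT1 that cells raise under osmotic stress, held 26.1, 25.8 and 168 CPM in KO against 10.3, 11.8 and 18.9 CPM in WT (log2 2.42 ± 0.66 (adjusted p = 0.0295)). Replicate 3 stood far above the other KO libraries. The summed level of the 8 macrophage markers also differed, at 60500 to 62400 CPM in resting KO against 31800 to 47800 CPM in resting WT libraries. With LPS it was 71200 to 87900 against 45500 to 59900 CPM. The sum follows mainly Lyz2, with an average log2 CPM of 15.5 where the next marker, Adgre1, had 11.4. Lyz2 itself was not called (adjusted p = 0.0734 at rest and 0.132 with LPS in edgeR's test). At rest Csf1r and Fcgr1 were called higher, Itgam was called lower and 5 markers were not called. With LPS Itgam was called lower and 7 were not called. The part of the markers in the differences of the transporters was not tested.

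Of these 4 higher members, Slc3a2, Slc7a8 and Slc6a12 each lost the call when resting KO replicate 3 was left out (log2 0.37, 0.52 and 0.94, adjusted p = 0.141, 0.197 and 0.248) or when any of the resting WT libraries was. Fitted on the 2 groups alone, these 3 did not pass either (adjusted p = 0.145, 0.162 and 0.145). That fit called 396 of 10851 genes in all, against 1067 of 11357 in the fit of all libraries. With a replicate block across genotypes Slc3a2 (adjusted p = 0.0507) and Slc7a8 (adjusted p = 0.0661) did not pass and Slc1a5 did, lower in KO (log2 -0.64, adjusted p = 0.0409). With quality weights 10 members passed, Slc7a8 (adjusted p = 0.0638) not among them, while Slc7a11 and Slc43a2 were also called higher and Slc7a1, Slc7a5, Slc36a2 and Slc43a3 lower. That fit called 2259 of 11357 genes in all. The count of members called was 3 without resting KO replicate 3, and 2, 1 and 3 without resting WT replicates 1, 2 and 3. Slc7a7 kept its call without resting KO replicate 3 (log2 0.67, adjusted p = 0.0137) and missed it without resting WT replicate 2 (adjusted p = 0.0534). With both resting KO replicate 3 and resting 3′F replicate 3 left out, a setting chosen after seeing the data, 8 members passed: Slc7a7, Slc3a2, Slc6a12, Slc7a11 (log2 1.06, adjusted p = 0.0478) and Slc43a2 (log2 0.68, adjusted p = 0.00834) higher, and Slc6a17, Slc43a3 (log2 -1.20, adjusted p = 0.0105) and Slc7a5 (log2 -0.84, adjusted p = 0.0436) lower.

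Slc6a17 (NTT4, chr3:107467543-107518018), a vesicular carrier of neutral amino acids known from neurons, was the member lower in KO. Resting WT libraries held 4.27, 3.61 and 4.35 CPM and resting 3′F libraries 6.10, 3.71 and 1.64 CPM. KO libraries held 0.371, 0 and 0 CPM at rest and 0, 0 and 0.0713 CPM with LPS. In counts that is 158 reads in the resting WT libraries together, 179 in 3′F and 6 in KO, all 6 from replicate 1. After scaling to depth, WT was 25.9 times KO, with an exact binomial 95% interval of 11.6 to 71.6 that covers counting error only. The difference passed (adjusted p = 0.00124), also without each library in turn. With LPS, Slc6a17 fell in WT to 0.698, 0.409 and 0.513 CPM (log2 -2.90 ± 0.54 (adjusted p = 0.000807)) and in 3′F to 0.733, 0.493 and 0.898 CPM (log2 -2.57 ± 0.53 (adjusted p = 0.00178)). In KO the LPS libraries together held 1 count against 23 in WT and 26 in 3′F, a WT to KO ratio of 22.9 with an interval of 3.71 to 941. No match to the miR-146a seed was found in its 3′ UTR.

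**Figure D4:**
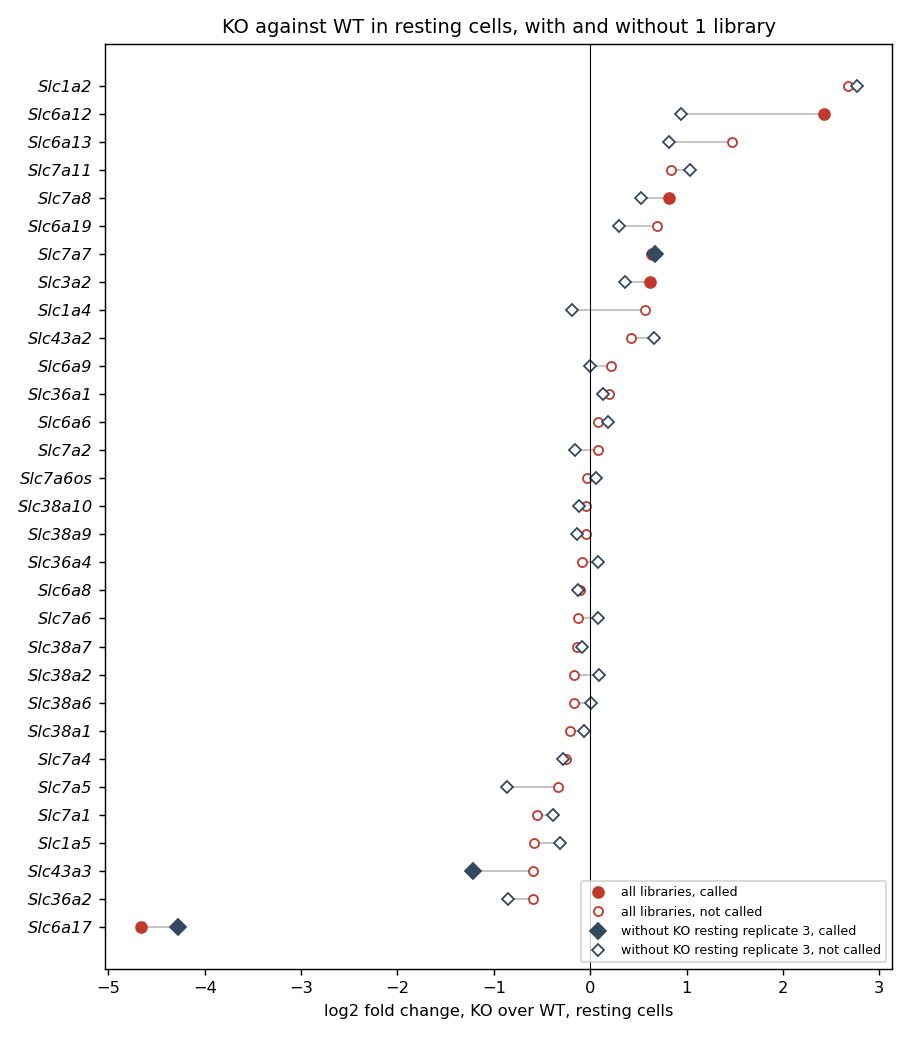
Log2 fold change of KO over WT in resting cells for the 31 expressed members, with all libraries (circles) and without resting KO replicate 3 (diamonds), filled where the adjusted p is under 0.05. Slc7a7 and Slc6a17 are filled in both, Slc3a2, Slc7a8 and Slc6a12 with all libraries alone, and Slc43a3 without that library alone.

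With LPS, 1 member differed between KO and WT (3.23%), against 4.79% of all genes (1.89% higher and 2.9% lower). It was Slc6a17, with the 1 count in KO against 23 in WT given above (adjusted p = 0.0406), and it lost the call when any of the 6 libraries was left out (adjusted p up to 0.176). Of the members higher in resting KO, Slc7a7 had a log2 difference of 0.28 with LPS (95% interval 0.00 to 0.56, adjusted p = 0.268), Slc3a2 0.17 (-0.19 to 0.53), Slc7a8 0.09 (-0.42 to 0.60) and Slc6a12 0.18 (-1.13 to 1.49).

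The third comparison asks how 3′F cells, also from a line of their own, differed from WT cells in these genes. In 3′F against WT, edgeR's quasi-likelihood test called 0 of 31 members at rest, with 2 at an unadjusted p under 0.05 (Slc1a2 and Slc36a1), and 0 with LPS, with 0 at an unadjusted p under 0.05. DESeq2 and limma-voom with quality weights also called 0 members in either state. Over all genes 0% and 0.00881% were called. Among the 25 members with an average log2 CPM of at least 1, log2 differences ran from -0.46 to 0.31 at rest and from -0.28 to 0.34 with LPS. For Slc7a2 with LPS the 95% interval was -0.43 to 0.95, for Slc7a11 -0.94 to 0.43 and for Slc38a2 -0.43 to 0.41, so changes inside these bounds could not be told from none. Against 3′F, KO differed at rest in 6 members (19.4%, 5 higher and 1 lower, against 12.9% of all genes, 6.79% higher and 6.1% lower): Slc7a7, Slc3a2, Slc7a8, Slc6a12, Slc6a17 and Slc36a1. Slc36a1, which has a seed match, held 54.5, 53.9 and 61.1 CPM in resting KO, 44.5, 39.5 and 30.9 CPM in resting 3′F and 45.1, 50.8 and 52.3 CPM in resting WT libraries, a KO to 3′F difference of log2 0.54 ± 0.13 (adjusted p = 0.0153). That call was lost without both resting KO replicate 3 and resting 3′F replicate 3 (adjusted p = 0.076). With the 2 groups fitted alone, none of the 6 passed (adjusted p from 0.103 for Slc6a17 to 0.322 for Slc6a12). That fit called 16 of 10944 genes in all, against 1464 of 11357 in the fit of all libraries, so the loss is not particular to these members. Without resting KO replicate 3 or without resting 3′F replicate 3 the calls of Slc3a2 and Slc7a8 were lost, and that of Slc6a12 without resting KO replicate 3 or resting 3′F replicates 1 or 2. Since KO is in both, this comparison and KO against WT are not independent. With LPS 1 member differed (3.23%, against 3.88%, 2.37% of all genes being lower), Slc6a17, with 1 count in KO against 26 in 3′F (adjusted p = 0.029), lost without any of 5 of the 6 libraries. Of the 10 expressed members with a seed match, 0 were called in KO against WT at rest or with LPS, where 9.4% and 4.79% of all genes were called, so that 0 of 10 is near the background. Their log2 medians were -0.16 and 0.02, beside 0.02 and 0.01 over all genes. Slc1a5, which is among them, passed with LPS in the other fits named above.

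The test of the difference between responses called 0 of 31 members in KO against WT, with 2 at an unadjusted p under 0.05 (Slc6a12 and Slc7a11), and 0 in 3′F against WT, with 1 (Slc36a1), while 0.00881% and 0% of all genes were called. DESeq2 and limma-voom with quality weights called 0 members in both as well. For Slc6a12 the response was smaller in KO by log2 2.25 (95% interval of the difference -4.14 to -0.36), with LPS libraries of 31.7, 34.5 and 23.0 CPM in WT, 40.0, 27.9 and 33.0 CPM in KO and 34.6, 26.0 and 37.1 CPM in 3′F and resting 3′F libraries of 8.18, 8.46 and 37.2 CPM. Without resting KO replicate 3 the difference was -0.77 (adjusted p = 1), and the change of Slc6a12 with LPS within KO turned from log2 -1.11 to 0.37, neither passing. Resting WT libraries of Slc6a12, at 10.3, 11.8 and 18.9 CPM, lay below those with LPS. This rise was not called in the edgeR fit of all libraries. It passed in limma-voom with quality weights (log2 1.04, adjusted p = 0.00809) and in edgeR with the 2 groups alone (log2 1.10, adjusted p = 0.00986). In 3′F its change was log2 1.01 (adjusted p = 0.257), and 1.92 without resting 3′F replicate 3 (adjusted p = 0.0397). Since no member passed the test of the difference, a member called for LPS in one genotype and not in another, such as Slc7a8, is not shown to respond differently.

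**Figure D5:**
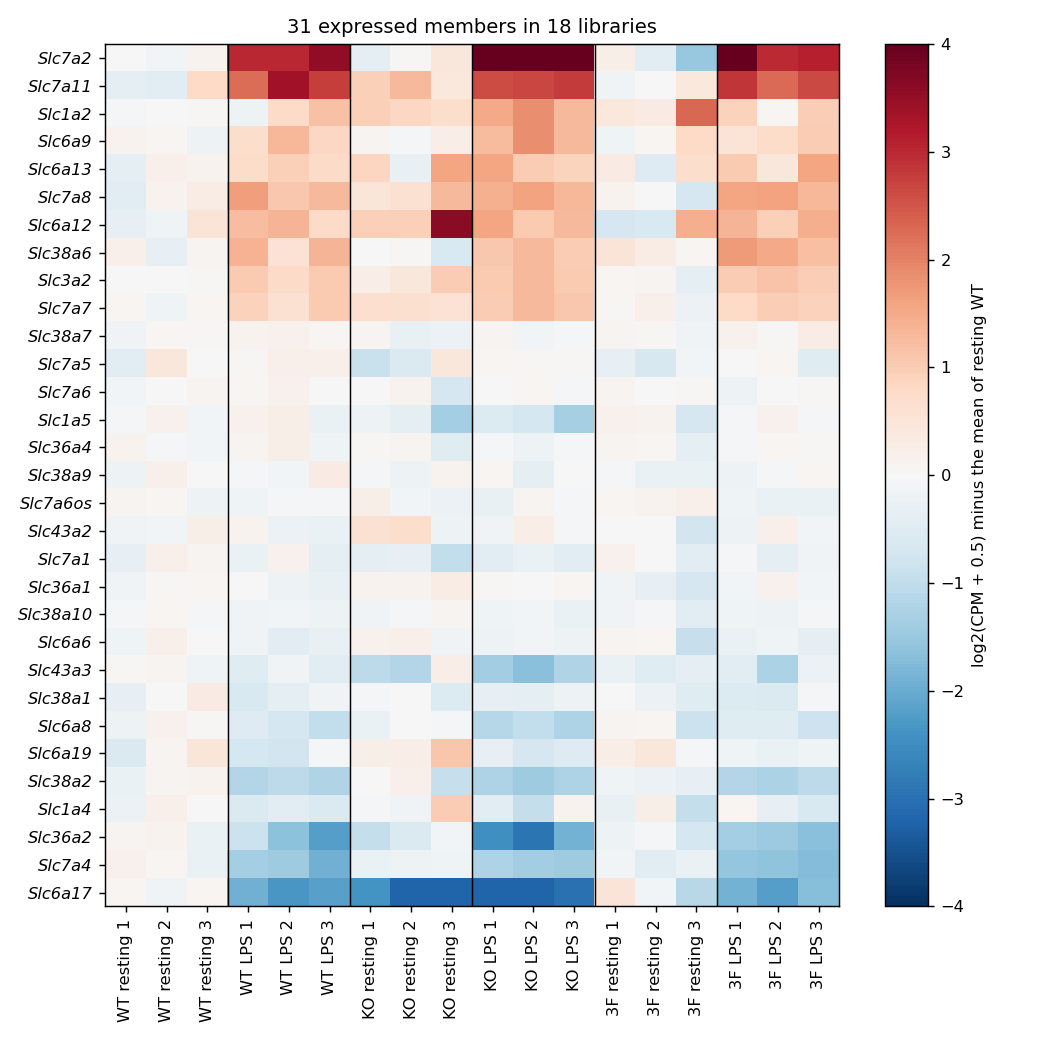
Each of the 31 expressed members (rows, ordered by the WT response) in each of the 18 libraries (columns), coloured by log2(CPM + 0.5) minus its mean over resting WT libraries. The LPS columns are red for Slc7a2 and Slc7a11 in each genotype, Slc6a17 is dark blue in all KO columns, and resting KO replicate 3 differs from the other resting KO columns at Slc6a12.

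Genes of the surrounding pathways were taken from lists of textbook members. Of 14 genes of the NRF2 and glutathione pathway, which uses the cysteine that Slc7a11 brings in, 10 rose and 0 fell with LPS in WT (median log2 0.77, all genes 0.02), 5 rose and 2 fell in KO, and 9 rose and 0 fell in 3′F, where 16.3%, 14.3% and 17.2% of all genes rose and 12.3%, 12.6% and 14% fell. Hmox1 (heme oxygenase) rose by log2 2.14 ± 0.20 (adjusted p = 1.15e-06) in WT, Gsr (glutathione reductase) by 1.60 ± 0.12 (adjusted p = 1.68e-07) and Gclm (a subunit of the enzyme that starts glutathione synthesis) by 1.35 ± 0.17 (adjusted p = 2.93e-05). In KO Hmox1 rose by 1.51 ± 0.19 (adjusted p = 2.52e-05) and Gsr by 1.82 ± 0.12 (adjusted p = 5.63e-08), and Gclm had 0.46 ± 0.17 (adjusted p = 0.0512). The test of the difference between the KO and WT responses called 0 of these 14 genes, and 0.00881% of all genes. Its median log2 was -0.32 for the 14 and -0.02 for all genes. A weaker response of this list in KO is thus not shown, and the part of resting KO replicate 3 in the KO counts was not tested. At rest, Nqo1 was higher in KO than in WT, at 32.8 ± 39.4 CPM against 7.28 ± 0.156 CPM (SD, n = 3), by log2 2.14 ± 0.60 (SE, adjusted p = 0.0332), with a spread in KO larger than the mean.

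Of 16 enzymes that consume amino acids, 4 rose and 3 fell with LPS in WT, 2 and 4 in KO, and 5 and 4 in 3′F, to be set against the shares of all genes given above. Those that use the arginine carried by Slc7a2 were among the former: Nos2 (inducible nitric oxide synthase) rose (adjusted p = 0.00382), from 0.176 ± 0.183 to 13.0 ± 12.2 CPM. Its resting WT libraries held 1, 1 and 4 counts, and the ratio of the summed counts at equal depth was 82 (interval for counting error 37.4 to 225). Arg1 (arginase) rose by log2 2.76 ± 0.77 (adjusted p = 0.0127). Ass1, which rebuilds arginine from citrulline, rose by 3.92 ± 0.77 (adjusted p = 0.00133). Odc1 (ornithine decarboxylase) had -0.86 ± 0.24 (adjusted p = 0.0125), Got1 -0.71 ± 0.14 (adjusted p = 0.00171) and Sms (spermine synthase) -0.45 ± 0.12 (adjusted p = 0.0111). In resting KO against WT, 1 of the 16 was called, against 9.4% of all genes. It was Ass1, higher by log2 2.95 ± 0.78 (adjusted p = 0.0253), at 17.9 ± 25.1 against 2.24 ± 0.437 CPM (SD, n = 3), with overlapping libraries. For Nos2, resting KO replicate 3 held 81 counts, and replicates 1 and 2 held 1 and 2. Of 20 genes of the amino acid response driven by ATF4, a factor known to act on Slc7a11, Slc3a2 and Slc38a2, 5 rose and 2 fell in WT (median log2 0.06, all genes 0.02), 6 and 1 in KO, and 5 and 3 in 3′F, which in WT is near the shares of all genes. Nupr1 rose by 1.78 ± 0.36 (adjusted p = 0.00157), Cebpb by 1.29 ± 0.16 (adjusted p = 2.2e-05) and the folate enzyme Mthfd2 by 0.98 ± 0.21 (adjusted p = 0.00242), while Eif2ak4 (GCN2, the kinase that senses uncharged tRNA) had -0.80 ± 0.17 (adjusted p = 0.00259) and the serine synthesis enzyme Psat1 -0.72 ± 0.20 (adjusted p = 0.0143). In resting KO against WT, Nupr1 (1.40 ± 0.36 (adjusted p = 0.0229)) and Cebpb (0.90 ± 0.16 (adjusted p = 0.003)) were higher, and Aldh18a1, which starts proline synthesis (-1.18 ± 0.31 (adjusted p = 0.0244)), and Psat1 (-0.89 ± 0.20 (adjusted p = 0.0127)) lower.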

How the data were processed

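Total RNA depleted of ribosomal RNA was made into directional libraries by the submitters. Per their notes and methods, reads were trimmed with cutadapt 1.8.3, aligned with HISAT2 2.1.0 to mm10 and counted by strand per gene with featureCounts 1.5.3. The authors deposited whole-number counts of reads per protein-coding gene, not normalized, with 1 column per library. Groups were taken from the labels.

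From these counts, library sizes were scaled by TMM (factors 0.812 to 1.15), low genes were removed with filterByExpr over the 6 groups, leaving 11357 of 21734, and one edgeR 4.0.16 (R 4.3.3, limma 3.58.1) quasi-likelihood model was fitted to all 18 libraries. The 11 comparisons were two-sided contrasts of it, with Benjamini-Hochberg adjustment over all genes tested and a threshold of 0.05. Standard errors are the log2 fold change over the root of F, and intervals use 16.05 degrees of freedom. CPM are counts per 1000000 of the scaled size. Genes were counted as expressed where they passed the filter. Intervals on summed counts cover counting error only. The script was tested on simulated data.

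Every expressed member was named. Some unexpressed members are not reported here by name. Values by library were given for members called with a log2 fold change of 1 or more either way whose mean log2 CPM was 1 or more, and for 10 members fixed by name. From the pathway lists, at most 3 genes were named in each direction. Slc6a17 and Slc36a1 were given by library after their values were seen. Members and lists were chosen with earlier results of these data known. 3′ UTRs and positions were read from Gencode M21 on GRCm38, the same assembly as mm10.

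The labels give 3 mice of each genotype and the same replicate numbers in both states, but do not say that a number marks a mouse, so the fit holds no replicate block. It is not stated whether the libraries of a group came from separate mice, and p-values then measure the spread between these libraries.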

Additional observations from a re-analysis of the deposited data

How the results depend on the processing

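Alternatives were DESeq2 1.42.0 and its size factors, no filter on low counts, limma-voom with sample quality weights, a fit of the compared groups alone, a replicate block, and leaving out each library. No log2 fold change of a member that had been called changed direction. With LPS, KO against WT gave 1 member called, but 3 with no filter, 3 with DESeq2, 7 with quality weights, 3 with the compared groups alone and 0 without any one library. Over all genes, the main fit called 544 of 11357. The alternatives called 552 of 19883 with no filter, 912 of 11817 with DESeq2, 1777 with quality weights and 1031 of 10903 with the compared groups alone. Without 1 library, 180 to 416 genes were called. With LPS, KO against 3′F gave 1, but 2 with DESeq2, 4 with quality weights, 2 with the compared groups alone and 0 to 1 without 1 library. There all genes went from 441 to 778 of 11434, 1842, 1661 of 10916 and 142 to 311 called. At rest, KO against WT gave 5, but 10 with quality weights, 2 with the compared groups alone, 1 to 5 without 1 library and 8 without both libraries that stood apart. At rest, KO against 3′F gave 6, but 11 with quality weights, 0 with the compared groups alone and 4 to 6 without 1 library. There all genes went from 1464 to 2916, 16 of 10944 and 735 to 1811 called. The LPS response in 3′F gave 10, but 19 with quality weights and 10 to 14 without 1 library. There all genes went from 3546 to 5478 and 2490 to 3594 called. In WT 11 to 12 and in KO 8 to 13 members were called without 1 library, with 2213 to 2932 and 2154 to 4040 of all genes. The smaller fits hold fewer libraries; the cause of the other shifts was not tested. The quality weights were lowest for resting 3′F replicate 3 (0.149), resting KO replicate 3 (0.168) and resting WT replicate 1 (0.302).

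Resting and LPS libraries of one genotype with the same number had deviations from the group means that correlated at 0.028 to 0.318 (median 0.106). For unlike numbers the correlations were -0.268 to 0.121 (median -0.059). Same-number values were higher in the median, with ranges that overlap. Whether a number marks a mouse was not tested. The replicate block within a genotype left the LPS calls at 12 in WT and 10 in 3′F and gave 12 in KO, adding Slc43a3. Over all genes it called 3040 in WT, 3323 in 3′F and 3019 in KO. Across genotypes the same-number correlations were -0.287 to 0.214. The replicate block gave 4 members for KO against WT at rest, 6 for KO against 3′F at rest, and 2 each for KO against WT and KO against 3′F with LPS. Over all genes it called 963, 1279, 579 and 433 in these comparisons. Slc3a2 and Slc7a8 lost and Slc1a5 gained a call at rest against WT, and Slc1a5 was the call gained in both comparisons with LPS (adjusted p = 0.00985 and 0.0146). Over single members 4498 values kept direction and side of the threshold, 58 no longer passed and 86 newly passed, values with no adjusted p in DESeq2 left out. Of 186 group levels, 42 moved by more than 1 SD with unscaled totals. Members near 3 counts or fewer in the libraries of both groups cannot be compared at this depth. Where the lower group is at that level, the size of a difference is uncertain.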

Other observations

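Lists of genes around amino acid use were also counted. Of 30 genes of lysosomal amino acid sensing and mTORC1, the kinase complex that reads amino acid supply, 1 rose and 8 fell with LPS in WT, 0 and 7 in KO, and 3 and 3 in 3′F (median log2 -0.17, -0.14 and -0.16, beside 0.02, 0.02 and -0.01 over all genes). Over all genes 16.3%, 14.3% and 17.2% rose and 12.3%, 12.6% and 14% fell. The GTPase Rragd, which helps recruit mTORC1 to lysosomes, fell from 14.7 ± 2.66 to 2.38 ± 0.659 CPM in WT (SD, n = 3), by log2 -2.62 ± 0.37 (adjusted p = 8.69e-05), and in KO by log2 -3.35 ± 0.42 (adjusted p = 2.21e-05) and in 3′F by log2 -2.61 ± 0.39 (adjusted p = 0.000114). Flcn had -0.76 ± 0.15 (adjusted p = 0.00162) in WT, Rptor, the mTORC1 scaffold, -0.70 ± 0.11 (adjusted p = 0.000301), and Mlst8 0.31 ± 0.11 (adjusted p = 0.0424). In KO against WT none of the 30 passed at rest or with LPS, where 9.4% and 4.79% of all genes did.

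Of 20 cytosolic aminoacyl-tRNA synthetases, which load tRNAs with amino acids, 1 rose (Farsa, log2 0.39 ± 0.13 (adjusted p = 0.0365)) and 1 fell (Qars, log2 -0.39 ± 0.08 (adjusted p = 0.00132)) with LPS in WT, 5 rose and 1 fell in KO, and 5 rose and 2 fell in 3′F. In WT that is 2 of 20 called, against 28.5% of all genes. None differed between KO and WT in either state, where 9.4% and 4.79% of all genes did.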
